A study of Homo sapiens with 2 samples.

Results

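Messenger RNA of lysosomal genes and of the transcription factors that drive them was compared between MDA-MB-231 cells carrying a short hairpin against CDK14 (CDK14-sh) and the same line carrying a scramble control. MDA-MB-231 is an established human line of triple-negative breast cancer, and CDK14 is a cyclin-dependent kinase of the cell membrane that acts in Wnt signalling. The genes were chosen by name: 27 named genes, among them MITF, TFEB and TFE3, cathepsins, other hydrolases and membrane proteins, and every gene symbol beginning with ATP6V except pseudogenes and hyphenated names. That gave 49 genes of 29452 in the table, 27 named and 22 encoding subunits of the vacuolar proton pump. With a single library in each group (n = 1), differences have no measure of replicate spread, and p-values are not given. The labels name the hairpin only by its target, and its sequence is not given in the sources used here.

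Reads counted in genes came to 15478156 for CDK14-sh and 17217564 for the scramble control. Levels are in RPKM, reads per kilobase of exon scaled to the reads assigned in the library, as the authors deposited them. A range in parentheses after a fold is its 95% interval by the Clopper-Pearson method, for counting error alone, and PCR copies make reads less independent than it assumes. CDK14 itself stood at 0.548 RPKM in CDK14-sh and 2.48 RPKM in the scramble control, 4.53-fold lower (3.40 to 6.11), on the side that the labels predict. Markers of the line (KRT8, KRT18, KRT19, VIM, CD44 and EGFR) all had at least 14.03 RPKM in each library and summed to 325 RPKM in CDK14-sh against 469 RPKM in the scramble control. CD44 alone was higher in CDK14-sh, at 92.2 against 79.7 RPKM, and the others were lower. VIM, the most abundant, stood at 146 RPKM in CDK14-sh and 249 RPKM in the scramble control. Markers of pigment cells, where MITF is most abundant, summed to 1.83 and 1.56 RPKM over 5 genes. Most of that was PMEL, whose row shares some exon bases with CDK2. DCT and MLANA had 0 reads in CDK14-sh against 1 and 2 reads in the scramble control. Markers of macrophages and leukocytes (4 genes), osteoclasts (3 genes) and fibroblasts (4 genes) summed to 1.24, 2.19 and 2.03 RPKM in CDK14-sh against 1.22, 2.17 and 1.78 RPKM in the scramble control, with ACP5 and LUM at 0 in both. The RNA came from whole cultures, so fewer cells carrying a transcript and less of it per cell cannot be told apart.

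Lysosomes are acidic compartments in which hydrolases break down proteins, glycans and lipids delivered by endocytosis and autophagy. The V-ATPase, a rotary pump with a cytosolic V1 sector and a membrane V0 sector, acidifies them. MITF, TFEB and TFE3 belong to the MiT/TFE family of basic helix-loop-helix leucine zipper factors. These bind E-box elements in the promoters of many lysosomal genes, the so-called CLEAR network. TFEB and TFE3 are held in the cytosol by mTORC1 when nutrients are plentiful. The activity of TFEB and TFE3 is set largely by location and phosphorylation, which RNA levels do not show.

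Most of the lysosomal genes lay within 1.5-fold, 35 of the 43 measured, as did 12102 of the 14878 genes measured in all. More of the 43 lay below 0 than above it. Of the 49 genes, 43 reached at least 1 RPKM in the higher library, and 6 did not: TFEB, ATP6V1B1, ATP6V1E2, ATP6V1G3, ATP6V0A4 and ATP6V0D2. The 43 had a median log2 ratio, CDK14-sh over scramble with 0.1 RPKM added to each level, of -0.05, against 0.04 over all 14878 genes at that level. Below 0 lay 26 of the 43 (60.5%), against 45.3% of all genes. Outside the proton pump 19 of 26 (73.1%) lay below 0. These counts depend on the scaling, and so does the background. Once the totals excluded mitochondrial reads, 22 of the 43 and 17 of the 26 lay below 0. Rescaled to TPM, 32 of the 43 and 23 of the 26 did. Of all genes passing the level filter under each scaling, 40.7% and 60.5% lay below 0, in that order. From 2-fold, 2 of the 43 were lower in CDK14-sh, MITF and ATP6V1G1, and 0 were higher. The background was 3.47% lower and 3.21% higher over all genes, and 2.17% lower and 1.04% higher over the 10434 protein-coding genes at this level. Over all genes these were 478 higher and 516 lower in RPKM, and the same genes rescaled to TPM gave 353 higher and 735 lower. From 1.5-fold, 7 of the 43 (16.3%) were lower, adding LIPA, CTSD, CD63, NPC1 and ATP6V0A2, and 1 was higher, ATP6V1F. The corresponding background was 9.55% lower and 9.11% higher over all genes, and 7.60% lower and 5.72% higher over protein-coding genes. These shares describe a pair of libraries and were not tested.

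**Figure D1:**
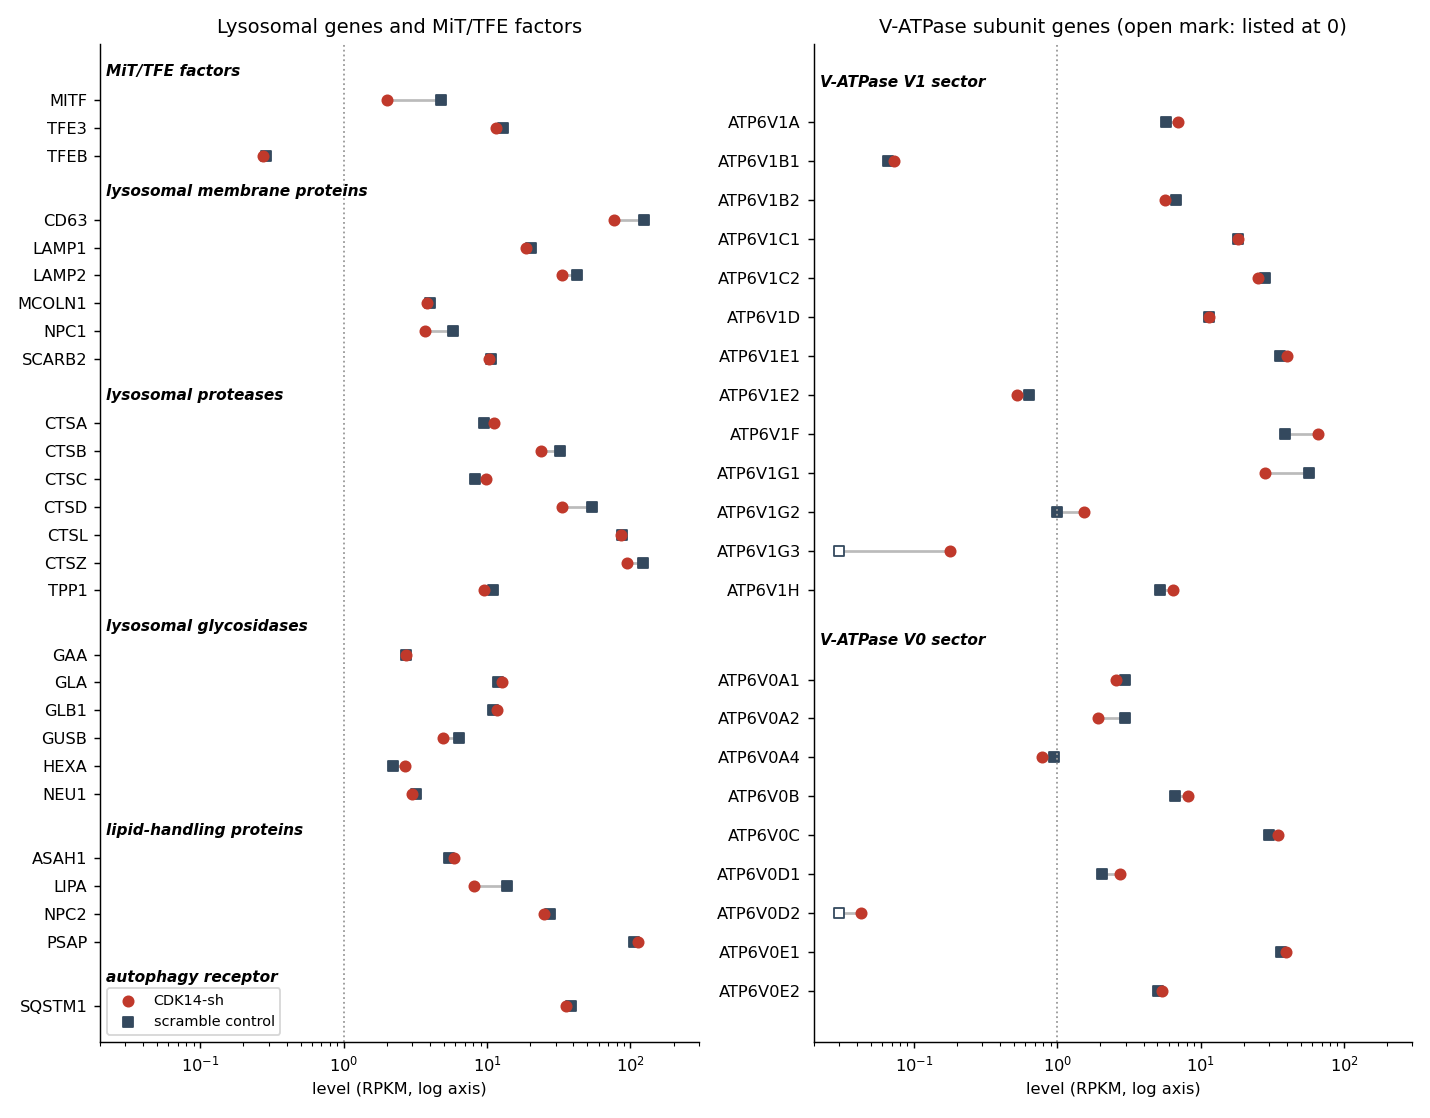
Level of each of the 49 genes in RPKM on a log axis, in CDK14-sh (red circles) and the scramble control (dark squares), grouped by role; the dotted line marks 1 RPKM and open marks at the left edge are genes listed at 0. Most pairs of marks touch, and the widest gaps among genes above 1 RPKM are those of MITF (2.003 and 4.77 RPKM) and ATP6V1G1 (28.1 and 57.4 RPKM).

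MITF gave the lowest ratio among these genes. The gene, best known as the master regulator of pigment cells, spans bases 69739435 to 69968337 of chromosome 3 (GRCh38, plus strand). Its level was 2.003 RPKM in CDK14-sh, from 223 reads, against 4.77 RPKM in the scramble control, from 591 reads, 2.38-fold lower (2.04 to 2.79). The ratio ranked 133 from the lowest of 11545 protein-coding genes that reached 30 reads in either library. No other row of the table shares its exons. The level is a sum over all annotated exons, so the several MITF isoforms, which start from separate promoters, were not told apart.

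TFE3, the most abundant family gene here, stood at 11.5 RPKM in CDK14-sh and 12.9 RPKM in the scramble control, 1.12-fold lower (1.02 to 1.23). TFEB, often the most studied of the family in lysosome biology, had 24 reads in CDK14-sh against 28 in the scramble control (0.275 and 0.288 RPKM). TFEC, the remaining relative, had 11 and 6 reads. TFE3 thus made up 83.0% of the summed RPKM of these 4 genes in CDK14-sh against 71.7% in the scramble control, while MITF made up 14.4% and 26.5%. The summed level was 13.9 RPKM in CDK14-sh and 18.04 RPKM in the scramble control.

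Promoters are shown next, since E-boxes of the CLEAR type are where these factors are known to bind. RefSeq windows (build GRCh38.p14) of 300 bases, 250 before to 50 after each annotated start, matched 37 of the 49 genes by symbol. ASAH1, ATP6V0D2, ATP6V0E1, ATP6V1A, ATP6V1B2, ATP6V1C1, ATP6V1E2, ATP6V1H, CTSB, HEXA, LAMP2 and PSAP had no window. The letters CACGTG, which read the same on both strands, occurred in 20.0% of the 60 windows of these genes and in 7.26% of all 35116 windows. Per gene they occurred in 11 of 37 (29.7%), against 12.9% of the 8426 protein-coding genes measured here with a window. The longer form TCACGTGA, which contains CACGTG and is again the same on both strands, occurred in 6 of 37 genes (16.2%), against 2.42%. The 10-base CLEAR palindrome, which is TCACGTGA with G before it and C after it, occurred in 3 genes (8.11%), against 0.961%. The 7-base form TCACGTG, searched on both strands, occurred in 10 genes (27.0%), against 7.38%. A gene can have several windows, so shares per gene run above shares per window.

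The windows given here are those of ATP6V1G1, GAA and MCOLN1, the 3 genes with the 10-base palindrome, and of LAMP1, which holds 6 copies of CACGTG, the largest number among these windows. All lie on the plus strand and read 5′ to 3′, with CACGTG in capitals: chr9:114587519-114587818 for ATP6V1G1, chr17:80101331-80101630 for GAA, chr19:7522374-7522673 for MCOLN1 and chr13:113296989-113297288 for LAMP1.
ATP6V1G1 promoter: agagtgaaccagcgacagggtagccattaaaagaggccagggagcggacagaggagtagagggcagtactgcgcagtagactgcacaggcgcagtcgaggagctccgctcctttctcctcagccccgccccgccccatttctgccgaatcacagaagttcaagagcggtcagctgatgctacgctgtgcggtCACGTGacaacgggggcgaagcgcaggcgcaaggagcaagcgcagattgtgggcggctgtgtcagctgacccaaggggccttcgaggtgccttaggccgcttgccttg
GAA promoter: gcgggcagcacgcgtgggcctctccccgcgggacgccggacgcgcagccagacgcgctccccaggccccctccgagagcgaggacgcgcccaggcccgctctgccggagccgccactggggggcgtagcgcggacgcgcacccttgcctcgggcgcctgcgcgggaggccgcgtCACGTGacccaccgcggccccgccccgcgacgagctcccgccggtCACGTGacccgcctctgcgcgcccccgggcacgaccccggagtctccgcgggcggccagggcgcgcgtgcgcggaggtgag
MCOLN1 promoter: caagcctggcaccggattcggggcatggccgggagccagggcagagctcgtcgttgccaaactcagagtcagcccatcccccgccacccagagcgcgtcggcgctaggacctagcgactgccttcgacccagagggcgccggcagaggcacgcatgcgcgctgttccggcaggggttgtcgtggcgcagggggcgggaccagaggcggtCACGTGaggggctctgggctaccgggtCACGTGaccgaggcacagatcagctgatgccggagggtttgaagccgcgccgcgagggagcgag
LAMP1 promoter: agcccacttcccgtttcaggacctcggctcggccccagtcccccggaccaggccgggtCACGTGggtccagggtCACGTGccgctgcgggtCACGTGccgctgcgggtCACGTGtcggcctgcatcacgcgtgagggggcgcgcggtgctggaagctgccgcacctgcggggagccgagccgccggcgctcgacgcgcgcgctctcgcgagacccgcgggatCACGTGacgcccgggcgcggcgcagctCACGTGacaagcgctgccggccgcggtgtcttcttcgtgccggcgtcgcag

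Genes with the element went in both directions. ATP6V1G1 was the lowest at a log2 ratio of -1.03, GAA and MCOLN1 stood at -0.003 and -0.06, and LAMP1 at -0.12. Over the 11 measured genes with CACGTG the median was -0.06, with 7 below 0 and 4 above. Over the 22 measured genes whose windows lack it the median was -0.12, with 15 below and 7 above. The ranges overlapped, from -1.03 to 0.40 with the element and from -1.21 to 0.77 without it, and MITF is among those without it. A match of letters is no record of binding, and a window without them says nothing of elements elsewhere.

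**Figure D2:**
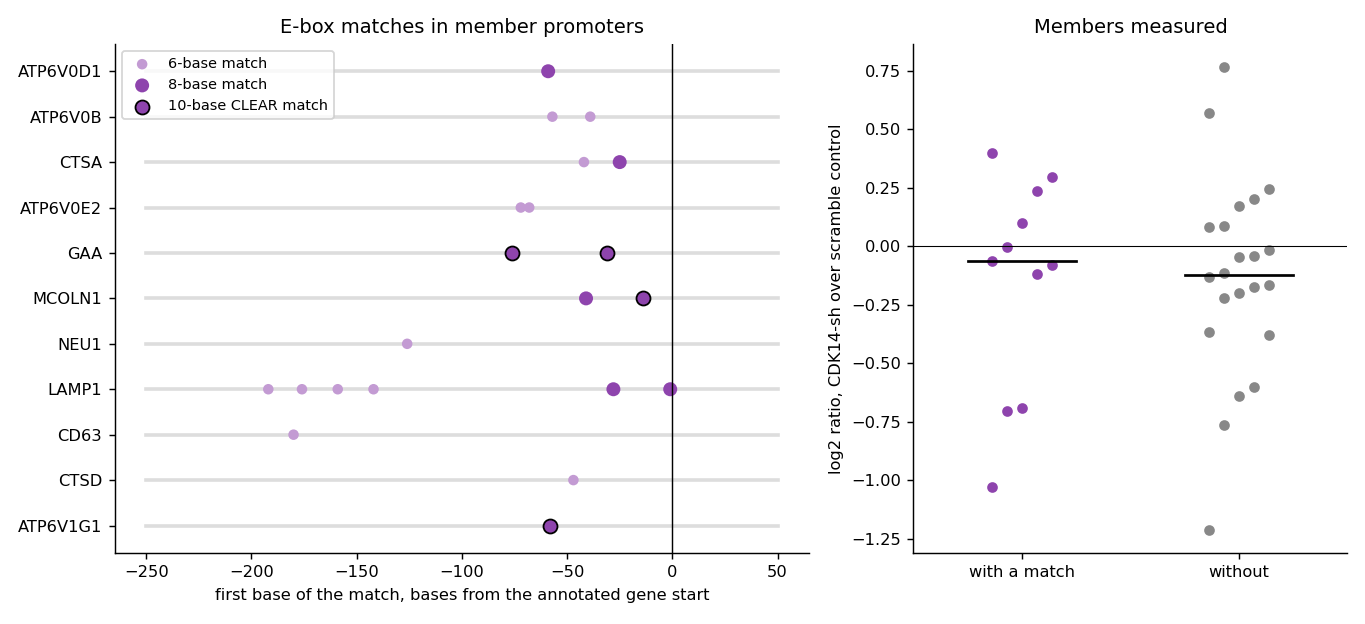
Left, position of CACGTG in the promoter windows of the 11 genes that hold it, as the first base of the match relative to the annotated start (both start sites of ATP6V0E2 are drawn), with larger marks for TCACGTGA and outlined marks for the 10-base palindrome, genes ordered from the highest to the lowest ratio. Right, log2 ratios of measured genes with and without a match, with bars at the medians of -0.06 and -0.12.

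The 6 lysosomal membrane proteins named in the rule all had ratios below 0, with a median of -0.24, against 45.3% of all genes below 0. When mitochondrial reads were left out of the totals, 5 of 6 did, and SCARB2 lay above 0. Of 24 other membrane proteins and transporters, given further below, 15 lay below 0 and 9 above. CD63, a tetraspanin of late endosomes and exosomes, was at 76.4 RPKM in CDK14-sh and 123 RPKM in the scramble control, 1.62-fold lower (1.55 to 1.69). NPC1, which exports cholesterol from the lysosome, was at 3.67 RPKM in CDK14-sh and 5.77 RPKM in the scramble control, 1.57-fold lower (1.42 to 1.75). LAMP2, a main glycoprotein of the lysosomal membrane that also serves chaperone-mediated autophagy, was at 33.3 and 42.7 RPKM, 1.28-fold lower (1.22 to 1.35). The remaining genes of this role lay nearer to equal levels. LAMP1, the other main membrane glycoprotein, was 1.09-fold lower (1.02 to 1.16). MCOLN1, a lysosomal calcium channel, and SCARB2, the receptor that carries glucocerebrosidase to the lysosome, were 1.04-fold (0.874 to 1.25) and 1.03-fold lower (0.941 to 1.13), with intervals that include equal levels.

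Proteases were split by gene. CTSD, the aspartic cathepsin D, was at 33.2 RPKM in CDK14-sh and 54.1 RPKM in the scramble control, 1.63-fold lower (1.54 to 1.74). CTSB, a cysteine cathepsin, was 1.35-fold lower (1.28 to 1.41), at 23.9 and 32.2 RPKM. CTSZ, a carboxypeptidase of the same class, was 1.29-fold lower (1.23 to 1.35), at 94.98 and 122 RPKM. These 3 abundant cathepsins were lower together, whereas CTSL, the cysteine cathepsin L, was nearly level at 85.2 RPKM in CDK14-sh and 88.0 RPKM in the scramble control (1.03-fold lower, 0.983 to 1.08). TPP1, a tripeptidyl peptidase, was 1.17-fold lower (1.06 to 1.29). In the other direction, CTSC, a dipeptidyl peptidase that activates serine proteases, was 1.19-fold higher (1.11 to 1.27). CTSA, which also protects the galactosidase and neuraminidase, was 1.18-fold higher (1.08 to 1.29). Exons of the CTSD row overlap other rows over 52.7% of its length, chiefly RP11-295K3.1 on the same strand, so its reads cannot all be assigned to CTSD alone. The CTSA row shares 28.5% of its length with other rows.

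Glycosidases were balanced, with 3 of 6 ratios below 0 (5 of 6 in TPM) and a summed level of 37.7 RPKM in CDK14-sh and 37.5 RPKM in the scramble control. GUSB, the beta-glucuronidase, was the lowest at 4.89 RPKM in CDK14-sh and 6.39 RPKM in the scramble control, 1.31-fold lower (1.13 to 1.52). HEXA, the alpha subunit of beta-hexosaminidase, was the highest at 2.66 and 2.22 RPKM, 1.20-fold higher (1.06 to 1.36). The HEXA row shares 16.3% of its length with other rows, among them RP11-106M3.2 on the same strand. Between GUSB and HEXA lay GAA (acid alpha-glucosidase), GLB1 (beta-galactosidase), GLA (alpha-galactosidase) and NEU1 (sialidase), whose counting intervals all included equal levels. GAA, with 2 copies of the palindrome in its promoter window, had 218 reads in CDK14-sh against 243 in the scramble control, a ratio of 0.998 (0.827 to 1.20).

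Among genes of lipid handling, LIPA stood apart. It encodes lysosomal acid lipase, which frees cholesterol and fatty acids from lipoprotein esters, and was at 8.07 RPKM in CDK14-sh and 13.8 RPKM in the scramble control, 1.71-fold lower (1.55 to 1.89). NPC2, the soluble cholesterol carrier that hands its load to NPC1, was 1.10-fold lower (1.01 to 1.19). PSAP, the precursor of the saposins that activate sphingolipid hydrolases, had the highest level of all 49 genes in CDK14-sh, 113 RPKM against 105 RPKM in the scramble control, 1.07-fold higher (1.03 to 1.11). ASAH1, acid ceramidase, was 1.09-fold higher (1.01 to 1.17), and both it and PSAP lay below 0 in TPM. SQSTM1, the autophagy receptor p62, was at 35.5 RPKM in CDK14-sh and 38.4 RPKM in the scramble control, 1.08-fold lower (1.04 to 1.13), with part of its length shared with C5orf45. LIPA and NPC1, which act in succession on lipoprotein cholesterol, were both lower in CDK14-sh, while NPC2 was much nearer to equal.

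**Figure D3:**
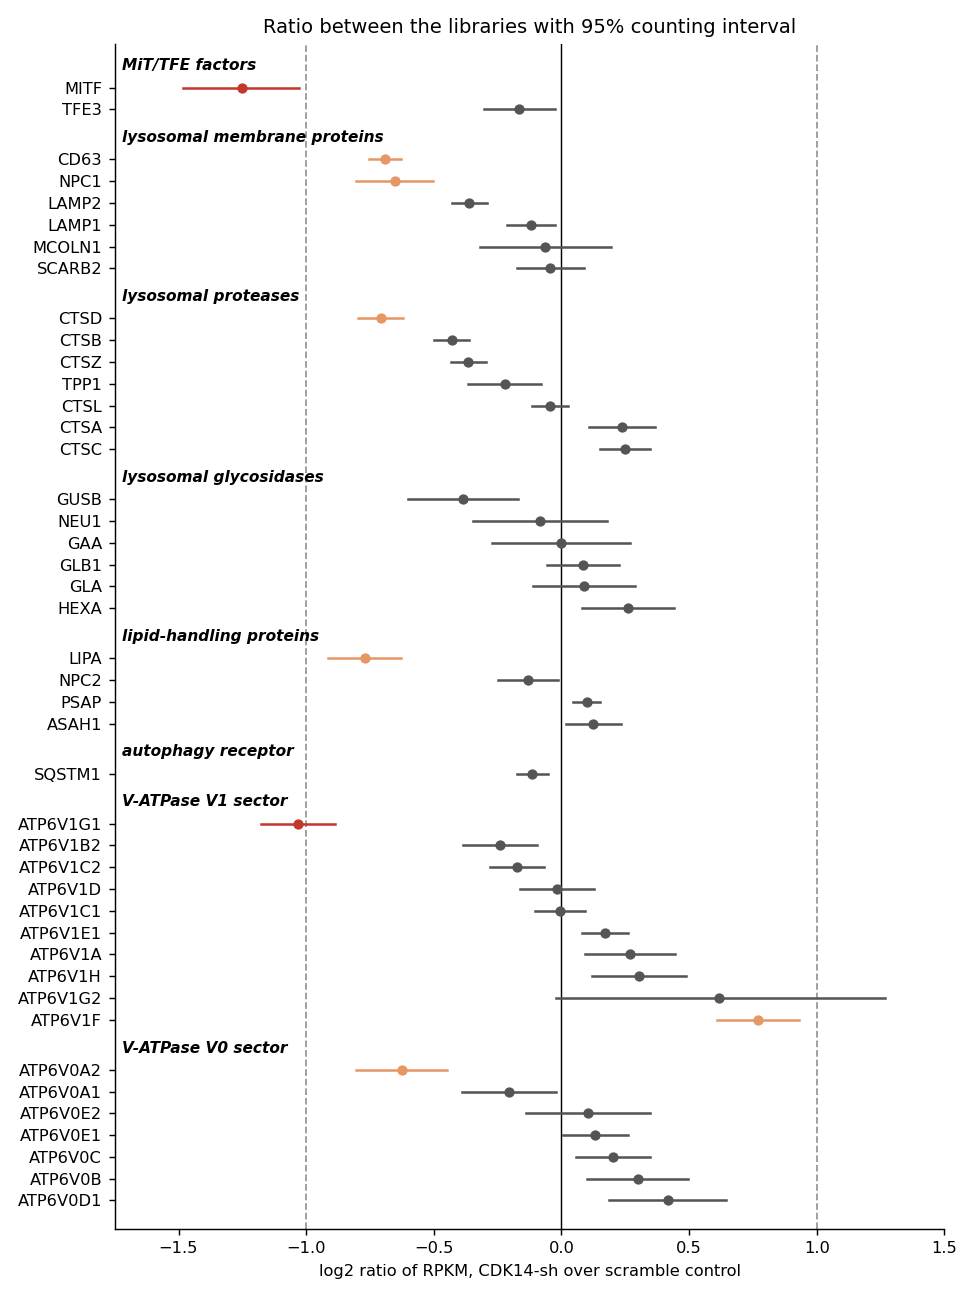
Log2 ratio of RPKM, CDK14-sh over scramble control with nothing added to the levels, for the 43 genes measured, grouped by role; lines are 95% counting intervals and dashed lines mark 2-fold. Red genes (MITF, ATP6V1G1) passed 2-fold, orange genes passed 1.5-fold, and the interval of ATP6V1G2, with 51 and 37 reads, is the widest.

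V-ATPase genes were centred above the other lysosomal genes, with a median of 0.13 over 17 measured genes against -0.12 over the 26 measured genes outside the pump. The summed level of the pump genes with ATP6V names was 306 RPKM in CDK14-sh and 296 RPKM in the scramble control. That of the lysosomal genes outside the pump was 653 and 778 RPKM. Pump genes under other names were not taken in. Rescaling the same genes to TPM moved the median of all genes to -0.11 and that of the pump genes to -0.02, with the other lysosomal genes at -0.27, so the sign of the pump's median depends on the scaling. The gap between the medians was not tested, and scaling, which shifts all ratios nearly alike, is no check of it. Of the V1 sector 5 of 10 ratios lay below 0, and of the V0 sector 2 of 7.

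The V1 sector held the most unequal pair of subunits. ATP6V1G1, encoding the G subunit of the peripheral stalk, spans bases 114587746 to 114598373 of chromosome 9 (plus strand). Its level was 28.1 RPKM in CDK14-sh, from 567 reads, against 57.4 RPKM in the scramble control, from 1289 reads, 2.04-fold lower (1.85 to 2.26). That ratio ranked 232 from the lowest of the same 11545 genes. No other row shares its exons. Its counting interval includes 2-fold, and its log2 ratio was -0.99 once mitochondrial reads were taken from the totals. ATP6V1F, encoding the F subunit of the central rotor, was at 66.1 RPKM in CDK14-sh and 38.8 RPKM in the scramble control, 1.70-fold higher (1.52 to 1.91). Its exons share 23.7% of their length with KCP, a row on the other strand that had 102 reads in CDK14-sh against 103 in the scramble control.

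The other isoforms of the G subunit were far less abundant. ATP6V1G2, known best from neurons, had 51 reads in CDK14-sh against 37 in the scramble control (1.53 and 1.00 RPKM), and ATP6V1G3 had 2 and 0 reads. The 3 G genes together summed to 29.8 RPKM in CDK14-sh and 58.4 RPKM in the scramble control, 1.96-fold lower. ATP6V1G1 made up 94.3% of that sum in CDK14-sh against 98.3% in the scramble control. Part of the ATP6V1G2 row is shared with the readthrough row ATP6V1G2-DDX39B, at 64.9 and 67.4 RPKM, so its reads are not certain to be its own.

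Other V1 subunits kept within 1.5-fold. ATP6V1A, the catalytic A subunit, was 1.20-fold higher (1.07 to 1.36), and ATP6V1H, a regulatory subunit, 1.23-fold higher (1.08 to 1.402). ATP6V1E1, the E subunit that pairs with G in the stalk, was at 40.3 RPKM in CDK14-sh and 35.8 RPKM in the scramble control, 1.13-fold higher (1.06 to 1.20). Its partner gene ATP6V1G1 thus had the opposite sign. ATP6V1B2, the B subunit of most tissues, was 1.18-fold lower (1.07 to 1.31), while ATP6V1B1, the form of kidney and inner ear, had 3 reads in each library. ATP6V1D and ATP6V1C1, subunits of the rotor and of the link to the stalk, were level within counting error, at 1.01-fold (0.916 to 1.12) and 1.00-fold lower (0.939 to 1.07). ATP6V1E2, known from testis, had 43 reads in CDK14-sh against 58 in the scramble control. ATP6V1C2 was listed above ATP6V1C1, at 24.98 RPKM in CDK14-sh and 28.2 RPKM in the scramble control, but 30.3% of its exon length is shared with PDIA6, an abundant row at 71.4 and 81.0 RPKM on the other strand. How many of those reads belong to ATP6V1C2 was not tested.

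In the V0 sector, ATP6V0A2 passed 1.5-fold, and the other 6 measured genes did not. ATP6V0C and ATP6V0B, which form the ring, were 1.15-fold (1.04 to 1.27) and 1.23-fold higher (1.07 to 1.41). ATP6V0D1, the d subunit that joins the ring to the rotor, was at 2.74 RPKM in CDK14-sh and 2.05 RPKM in the scramble control, 1.34-fold higher (1.14 to 1.57). ATP6V0E1 and ATP6V0E2, small membrane subunits, were 1.10-fold (1.00 to 1.20) and 1.07-fold higher (0.908 to 1.27), and both lay below 0 in TPM. ATP6V0A2, the a2 form of Golgi and endosomes, was at 1.92 RPKM in CDK14-sh and 2.96 RPKM in the scramble control, 1.54-fold lower (1.36 to 1.75). ATP6V0A1 was 1.15-fold lower (1.02 to 1.31), and ATP6V0A4, the a4 form of kidney, had 49 reads in CDK14-sh against 66 in the scramble control. ATP6V0D2, known from osteoclasts, had 2 and 0 reads. Rows on the same strand cover 72.1% of the ATP6V0C exons, so its reads cannot all be assigned to it. The ATP6V0E2 row shares 25.9% of its length with ATP6V0E2-AS1.

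**Figure D4:**
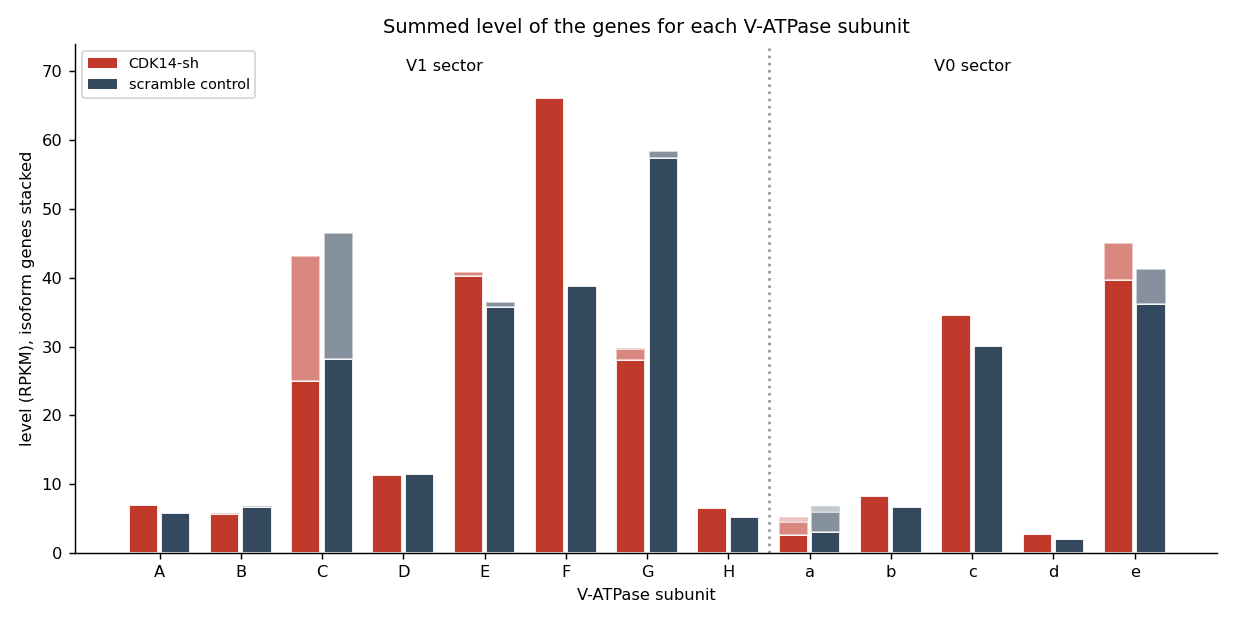
Sum of RPKM over the genes with ATP6V names for each V-ATPase subunit, in CDK14-sh (left bar) and the scramble control (right bar). Isoforms are stacked from the most abundant (darkest) upward, and isoform genes under other names are not included. The G subunit stands at 29.8 RPKM in CDK14-sh and 58.4 RPKM in the scramble control, while the F subunit stands at 66.1 and 38.8 RPKM.

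Short words in 3′ untranslated regions were examined because 4 of them had been picked earlier from these same ratios as frequent in lower genes. One pair is GTCATGC with its overlapping neighbour TCATGCA, and the other pair is ATCCATA with its overlapping neighbour TCCATAA. They were searched on the transcript strand only. At least 1 occurred in 8 of the 43 measured lysosomal genes (18.6%), against 25.1% of 10359 measured protein-coding genes. Singly, the words occurred in 6.35%, 10.6%, 8.34% and 10.1% of those coding genes, in the order given. These regions differ in length, with medians of 1051 bases for the lysosomal genes and 1357 bases for all coding genes. Both genes past 2-fold carried a word: MITF has ATCCATA, and ATP6V1G1 has GTCATGC and TCATGCA in the last 8 bases of its annotated transcript. The other carriers, ASAH1, ATP6V0B, ATP6V0E1, CTSC, GLB1 and SCARB2, had log2 ratios between -0.04 and 0.29, and LIPA, CTSD, CD63, NPC1 and ATP6V0A2 carried none. Since the words were chosen on these ratios, their presence in MITF and ATP6V1G1 supports nothing. The sites in GENCODE v29 transcripts, plus strand with the words in capitals, lie at chr9:114598344-114598373 for ATP6V1G1 and chr3:69965673-69965702 for MITF.
ATP6V1G1 site: atcatttaaaagtaaagactctGTCATGCA
MITF site: gaggaaaagaaATCCATActaacccttttc

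Related genes that the rule does not take in were given by 6 lists. Over all genes the median was 0.04, with 45.3% below 0. From 2-fold, 3.47% of all genes were lower and 3.21% higher, or 2.17% and 1.04% of protein-coding genes. The counts of the lists were not tested against these shares. Other hydrolases and activators had a median of -0.03 over 40 measured genes, with 1 higher and 1 lower from 2-fold. Both calls were lost with a pseudocount of 1 RPKM (CTSS at a log2 ratio of 0.96, CTSV at -0.69), and that of CTSS also in TPM, at 0.90. The higher was CTSS, a cysteine cathepsin of antigen-presenting cells, at 14.2 RPKM in CDK14-sh and 6.86 RPKM in the scramble control, 2.08-fold higher (1.86 to 2.32). The lower was CTSV, a relative of CTSL, at 1.10 and 2.38 RPKM, 2.17-fold lower (1.66 to 2.85). IFI30, a thiol reductase of antigen processing that shares 40.2% of its exon length with AC007192.4, was 1.78-fold higher (1.53 to 2.09), and MAN2B2, a mannosidase, was 1.68-fold lower (1.49 to 1.89). Cathepsin genes thus stood on both sides, with CTSS higher and CTSV and CTSD lower.

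Sorting of enzymes to the lysosome included another gene past 2-fold. M6PR, the cation-dependent mannose 6-phosphate receptor that carries new hydrolases from the Golgi, was at 46.8 RPKM in CDK14-sh and 21.96 RPKM in the scramble control, 2.13-fold higher (lower bound 2.0, upper bound 2.27). Its log2 ratio was 0.94 in TPM, under 2-fold, and it shares 29.3% of its exon length with PHC1. GNPTG, a subunit of the enzyme that makes the mannose 6-phosphate tag, was 1.51-fold higher (1.27 to 1.78), with 30.9% of its exon length shared. In contrast, SUMF1, which activates sulfatases, was 1.46-fold lower (1.21 to 1.77), and AP3D1, an adaptor subunit, was 1.30-fold lower (1.21 to 1.41). The list of 13 measured genes had a median of -0.02, with 1 higher and 0 lower from 2-fold. Of 24 other membrane proteins and transporters (median -0.10), 15 lay below 0 and 9 above. Of these, 0 passed 2-fold in either direction, though SLC29A3 did in TPM, at a log2 ratio of -1.02. SLC29A3, a nucleoside transporter, was 1.86-fold lower (1.34 to 2.61), SLC17A5, the sialic acid exporter, 1.61-fold higher (1.42 to 1.84), LAPTM4B 1.44-fold higher and LAPTM4A 1.43-fold lower.

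Genes of nutrient sensing at the lysosome, which set where TFEB and TFE3 reside, had a median of 0.05 over 25 genes, and 0 passed 2-fold. MTOR, the kinase itself, was at 2.30 RPKM in CDK14-sh and 4.01 RPKM in the scramble control, 1.75-fold lower (1.55 to 1.97). RPTOR, its partner in mTORC1, was at 4.65 and 3.13 RPKM, 1.49-fold higher (1.32 to 1.67). FNIP2, a folliculin partner, was 1.74-fold lower (1.47 to 2.06), and LAMTOR1, which anchors the Ragulator complex, was 1.56-fold higher (1.37 to 1.78). Kinase and partner thus stood on opposite sides. Autophagy genes had a median of 0.05 over 40 measured genes with 0 past 2-fold. Of the 40, 14 lay below 0 (35.0%, against 45.3% of all genes) and 26 above. The ratios farthest from 0 there were those of ATG12 (1.53-fold lower), GABARAPL2 (1.46-fold higher), VPS18 (1.38-fold lower) and OPTN (1.29-fold lower). In TPM the medians of nutrient sensing and of autophagy were both -0.10, against -0.11 over all genes. The sign of both medians thus depends on the scaling.

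Of 23 genes listed as known MITF targets, mostly from pigment cells, 19 had a row and 10 were measured, with a median of -0.25. With no level filter the median was -0.14. Below 0 lay 8 of the 10, against 45.3% of all genes. In TPM the median of the list was -0.38, and 60.5% of all genes lay below 0. Past 2-fold there were 0, though MET passed in TPM, at a log2 ratio of -1.09. MET, the hepatocyte growth factor receptor, was at 8.36 RPKM in CDK14-sh and 16.0 RPKM in the scramble control, 1.92-fold lower (1.77 to 2.08). RAB27A, which tethers melanosomes and secretory vesicles, was at 5.89 and 10.6 RPKM, 1.79-fold lower (1.61 to 1.996). BCL2A1, an anti-apoptotic gene, was 1.71-fold lower (1.37 to 2.14), and CCNB1, which encodes cyclin B1, was 1.32-fold lower (1.25 to 1.39). The 2 measured genes above 0 were DIAPH1, 1.18-fold higher (1.13 to 1.23), and PMEL, 1.09-fold higher (0.805 to 1.47). The PMEL row shares 89 exon bases with CDK2, a row on the other strand at 37.5 RPKM in CDK14-sh and 39.5 RPKM in the scramble control. How many of the 90 and 92 PMEL reads lie there was not tested. TYRP1, DCT, MLANA and SLC45A2, pigment genes of the list, stayed under 1 RPKM in both libraries. Every gene of this list has other known regulators, and with 1 library per group whether these genes follow MITF was not tested.

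**Figure D5:**
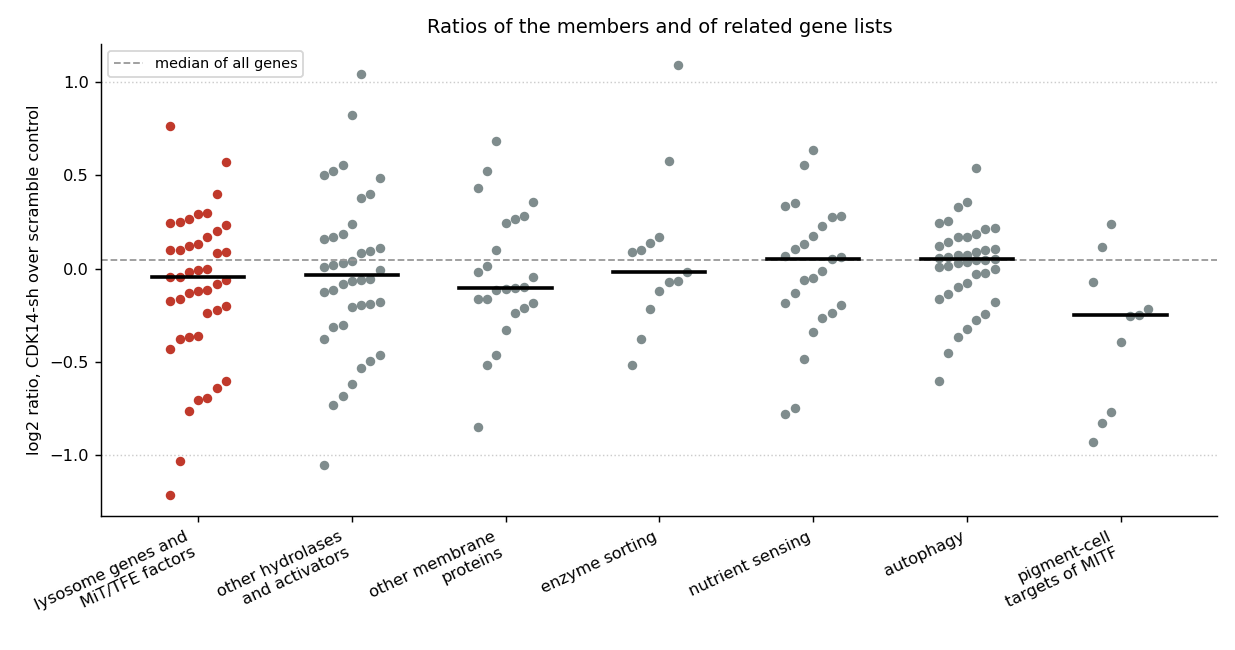
Log2 ratio of each measured gene, CDK14-sh over scramble control, for the lysosome genes and MiT/TFE factors (red) and the 6 related lists (grey); bars are medians, the dashed line is the median of all genes (0.04) and dotted lines mark 2-fold. The red points spread from -1.21 (MITF) to 0.77 (ATP6V1F) around a median of -0.05, and the MITF target list has the lowest median, -0.25.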

How the data were processed

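Per the labels' protocols, the libraries were stranded mRNA libraries of Trizol RNA. The deposited table gives each of 29452 gene rows its exon length and an RPKM value per library, per the file headers. Bowtie (0.12.2), featureCounts and Subread (1.5.1) are named in the submitters' processing notes, as are the builds GRCh38 and mm8, without roles. How strand and shared reads were handled is not given in the sources used here. Of the 49 genes, 42 have the same start and end in GENCODE v29 (GRCh38), and 24 share exons with another row.

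RPKM times exon length was divided, in each library, by a step fitted from the smallest nonzero product, taken as 1 read. This gave whole reads for 100.0% of nonzero values in both libraries, within 0.01 read. These reads gave the read totals and the intervals. Each ratio is log2 of the CDK14-sh level over the scramble level after adding 0.1 RPKM to both, which understates the change of low genes. Calls at 2-fold and 1.5-fold used these ratios for genes with 1 RPKM or more in the higher library, while printed folds are plain ratios of RPKM. Where both libraries held at most 3 reads, or 1 of them held 0, no fold is given. The scripts were tested on simulated reads, and 12 alternatives were tried (pseudocount, level, scaling, threshold, shared exons, reads and gene type). Genes and lists were chosen with earlier results of these data known. Named were all genes of the rule, CDK14, TFEC and the 4 ratios farthest from 0 in each related list. DIAPH1 and PMEL, the 2 measured MITF targets above 0, were added and are not counted among the named genes of the alternatives. For 3′ UTRs the longest one among basic GENCODE transcripts of a gene was read. Software was matplotlib 3.10.9, scipy 1.17.1, pandas 2.3.3 and numpy 2.4.6 under Python 3.11.15.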

Additional observations from a re-analysis of the deposited data

How the results depend on the processing

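No paired analysis was possible because there was 1 library for CDK14-sh and 1 for the scramble control. Of 12 alternatives, 2 (at least 30 reads, protein-coding genes) were chosen after seeing the data. The lysosomal genes lower from 2-fold numbered 2, and 1 with a pseudocount of 1 RPKM (MITF then -0.94, CDK14 -1.17), 1 with at least 5 RPKM, where MITF did not enter, 1 with mitochondrial reads left out (ATP6V1G1 at -0.99) and 7 from 1.5-fold. Those higher numbered 0, and 1 with no level filter (ATP6V1G3, with 2 and 0 reads) and 1 from 1.5-fold. Over all genes, 478 were higher and 516 lower, against 176 and 259 when 1 RPKM was added, 2173 and 2043 with no floor on the level, 83 and 177 from 5 RPKM, 307 and 315 over rows sharing no exons, 166 and 290 with at least 30 reads, 109 and 226 among protein-coding genes, and 1355 and 1421 from 1.5-fold. TPM shifts each log2 ratio by about -0.15, since RPKM summed 1.11 times higher in CDK14-sh, and lets more genes reach the level filter (17068 genes, 45 of them lysosomal). It gave 609 and 1128, with medians of -0.21 for the lysosomal genes and -0.17 for enzyme sorting. Over the genes that pass in RPKM it gave 353 and 735, and a median of -0.20 for the 43 lysosomal genes. In TPM, GLA, GLB1, ASAH1, PSAP, ATP6V0E1 and ATP6V0E2 lay below 0, and with mitochondrial reads left out SCARB2, GAA, ATP6V1C1 and ATP6V1D lay above it. Of the 66 other named genes, 35 left their counting interval in TPM, 2 with a pseudocount of 1 RPKM and 0 under the other scalings and pseudocount; no gene past 2-fold changed sign. Settings that only choose rows cannot change a gene's ratio. Calls at 2-fold were lost by CTSS (0.96 with 1 RPKM added, 0.90 in TPM), CTSV (-0.69 with 1 RPKM added) and M6PR (0.94 in TPM), and gained in TPM by MET (-1.09) and SLC29A3 (-1.02). Genes at a few reads are limited by depth: 3 reads are 0.149 RPKM for ATP6V1G1 and 0.0343 RPKM for TFEB in CDK14-sh.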
